A study of Homo sapiens with 6 samples.

Results

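The 10 transcription factor genes of foregut, lung and SOX lineages were described across arrays of A549 cells transfected with a microRNA mimic. The genes were NKX2-1, FOXA1, FOXA2, GATA6, SOX2, SOX4, SOX9, SOX21, CEBPA and CEBPD. They are 10 of 20046 genes named on the array. All 14 probes whose platform symbol was 1 of them were taken, of 47319 probes, and each probe was followed on its own. A549 is an established cell line from a human lung adenocarcinoma. Its cells had been transfected with Lipofectamine RNAiMAX and carried a negative control mimic, a hsa-miR-608 mimic or a hsa-miR-552-3p mimic. RNA was taken 24 h later, and 2 Illumina bead arrays were run per group, 6 in all. All 3 groups share the cell line, the transfection reagent and the time. No untransfected cells were in the series, so each level below is that of a transfected culture, and the line is 1 tumour's cells. The labels leave it unsaid whether a group's pair of arrays holds separate cultures, so each p-value measures a spread between arrays that may be technical.

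NKX2-1 is the homeobox factor that marks the lung and thyroid buds, and FOXA1 and FOXA2 are forkhead factors that open closed chromatin in endoderm. GATA6 is a zinc finger factor of endoderm and distal lung. SOX factors bind DNA through an HMG box: SOX2 marks proximal foregut and airway, SOX9 the distal lung tips, and SOX21 is a close relative of SOX2 that represses transcription. SOX4 is a factor of embryonic and tumour cells that stabilises Wnt signalling, and CEBPA and CEBPD are basic leucine zipper factors of differentiated alveolar cells, liver and fat, CEBPD also being an acute phase factor. A mimic is a synthetic duplex that loads a mature microRNA into the silencing complex, which pairs with messenger RNAs mainly through the seed, bases 2 to 8.

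The mature microRNAs that the mimics are named for are shown with the seed in capitals, because the 2 treatments differ in that stretch. Sequences are RefSeq's on GRCh38.p14, 5′ to 3′, and the sequences of the mimics themselves are not given in the sources used here.
hsa-miR-608: aGGGGUGGuguugggacagcuccgu
hsa-miR-552-3p: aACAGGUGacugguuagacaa
Mature miR-608 lies at chr10:100975000-100975024 on the plus strand over these 25 bases, and miR-552-3p at chr1:34669614-34669634 on the minus strand over 21 bases. The seed of miR-608, GGGGUGG, holds 6 guanines and pairs with CCACCCC, and that of miR-552-3p, ACAGGUG, holds 3 and pairs with CACCUGU. No transcript sequence was used here, so no member was searched for a seed match.

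The arrays were close in quality. A probe was detected on an array when its detection p-value, which sets it against negative control beads, was under 0.05, and it was tested when detected on at least 2 arrays. Between 18550 and 19758 probes were detected per array, with a median signal between 181.7 and 200.7 units. Pearson's r of log2 values over the tested probes was 0.993 to 0.994 between arrays of a group and 0.968 to 0.978 between groups. The number of arrays limits the precision. Of the 6 epithelial markers EPCAM, CDH1, KRT7, KRT8, KRT18 and KRT19, all were detected on all 6 arrays. Of 6 squamous and basal markers 4 had a probe (KRT5, KRT14, DSG3 and PKP1), and none of these 4 passed the detection filter. Of 8 neuroendocrine markers 6 had a probe, and 1 of these passed. The summed signal of the squamous list, 5 probes, was 728 to 748 units in the control, 717 to 804 with miR-608 and 704 to 753 with miR-552-3p. The neuroendocrine list, 9 probes, summed to between 1370 and 1503 units in all groups.

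The members NKX2-1 and GATA6 were not detected on any array, nor were 2 of the 3 FOXA2 probes. NKX2-1 was read by 2 probes. The first (ILMN_1728117) gave 120 and 118 signal units on the control arrays, 105 and 102 with miR-608 and 130 and 128 with miR-552-3p. The second (ILMN_2394841) gave 93.7 to 117 units over the 6 arrays. Both lay below the faintest detected signal of every array, which was 200.3 to 225.3 units. The GATA6 probe (ILMN_1695041) read 168 and 155 units in the control, 205 and 141 with miR-608 and 155 and 166 with miR-552-3p, and its lowest detection p-value was 0.152. The FOXA2 probes ILMN_1678728 and ILMN_1763712 stayed between 86.7 and 127 units. No comparison was made with these 5 probes. A reading below detection does not bound a gene's level here, since the detected FOXA2 probe (ILMN_1668052) read 5300 to 9635 units on the same arrays. How well the NKX2-1 and GATA6 probes read their transcripts was not tested.

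**Figure D1:**
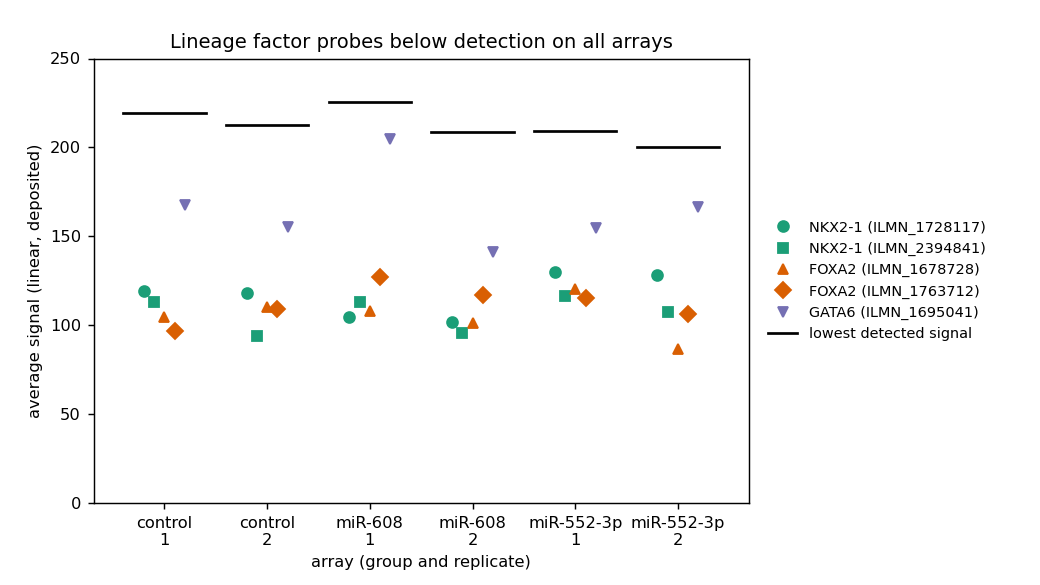
Signal in array units of the 5 member probes detected on no array, 1 point per array, with the faintest detected signal of the arrays for scale. All points lie between 86.7 and 204.5 units, below the faintest detected signal of their array.

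Of 22 genes for products typical of differentiated lung, 20 had a probe, of which 5 were detected on all 6 arrays, 4 on some and 11 on none. Over the whole array 7120 of 20046 named genes, 35.5%, were detected on none. Among those 11 were the surfactant protein genes SFTPA1, SFTPB and SFTPC, the club cell secretoglobin SCGB1A1 and the aspartic protease NAPSA. The 5 products detected on all 6 arrays were ABCA3, LAMP3, LPCAT1, CAV1 and MUC1. Another surfactant protein gene, SFTPD, was detected on 3. Of the lineage factors, those detected in these cells were FOXA1, FOXA2, the SOX genes and the C/EBP genes, with the defining lung marker NKX2-1 below detection.

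The other 8 members, with 9 probes, were detected on all 6 arrays and are described below. Values are array signals for each array, then differences between group means of background-corrected, quantile-normalised log2 values with their standard errors (n = 2 arrays per group). A probe was called when limma's p-value, adjusted by Benjamini-Hochberg over 20749 tested probes, was under 0.05. In such a bulk measurement fewer cells with a transcript and less of it per cell cannot be told apart.

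**Figure D2:**
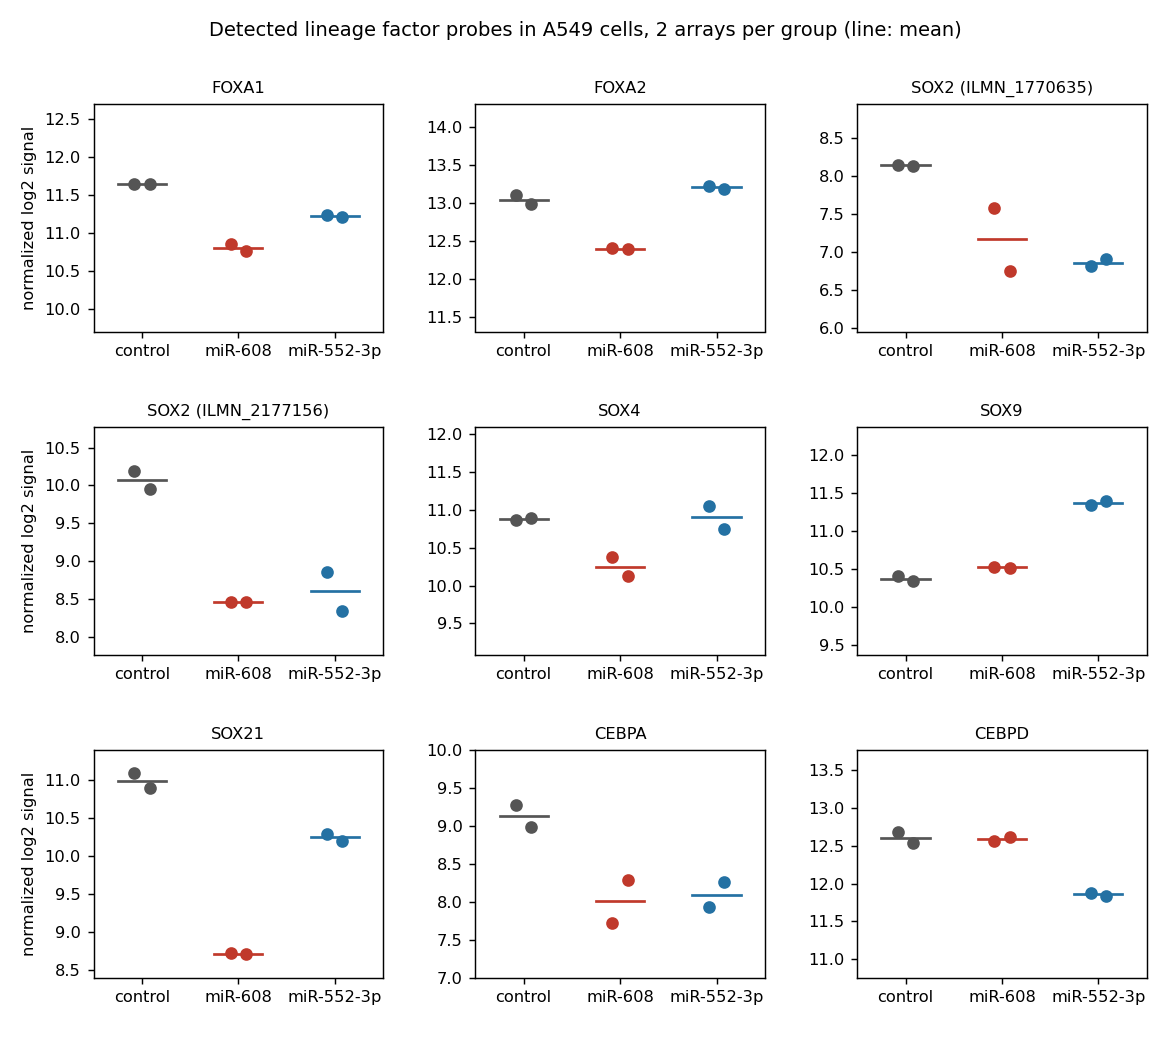
Normalised log2 signal of the 9 detected member probes, 1 panel per probe and 1 point per array, with a bar at each group mean; the control, miR-608 and miR-552-3p arrays are set side by side. SOX21 and both SOX2 probes lie lower with both mimics, SOX9 lies higher with miR-552-3p, and CEBPD lies lower with miR-552-3p.

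FOXA1 was lower with both mimics, and FOXA2 with miR-608. The FOXA1 probe (ILMN_1766650) read 3380 and 3513 units on the control arrays, 2013 and 1807 with miR-608 and 2424 and 2486 with miR-552-3p. The groups did not overlap, and the control arrays were the highest and the miR-608 arrays the lowest. FOXA1 fell by 0.84 ± 0.08 on the log2 scale (SE) with miR-608, 1.79-fold (limma adjusted p = 0.00277). With miR-552-3p it fell by 0.42 ± 0.08, 1.34-fold (adjusted p = 0.0139). The smaller of these calls did not survive the loss of any single control or miR-552-3p array (adjusted p between 0.0637 and 0.0671), nor held with all probes tested (0.0501) or with median scaling of the arrays (difference -0.29, adjusted p = 0.0678). The fall with miR-608 passed in all 16 alternative settings.

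The detected FOXA2 probe (ILMN_1668052) was bright, at 8941 and 8639 units in the control, 5528 and 5300 with miR-608 and 9462 and 9635 with miR-552-3p. The miR-608 arrays stood below all others. FOXA2 fell by 0.65 ± 0.08 (log2, SE) with miR-608, 1.57-fold (limma adjusted p = 0.00539), and the call passed in all 16 settings. With miR-552-3p the difference was 0.16 ± 0.08 with a 95% interval of -0.04 to 0.36 (adjusted p = 0.195), although both arrays lay above the control. That call was gained with median scaling (0.38, adjusted p = 0.0316) and with an intensity trend in the variance (adjusted p = 0.0489). The other 2 FOXA2 probes are undetected and say nothing on these differences. Which transcripts each probe covers was not examined.

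SOX2 and SOX21, both of the SOXB group, were lower with both mimics. Among the members the largest fall was that of SOX21 with miR-608 and that of SOX2 with miR-552-3p. SOX21 (ILMN_1783185) read 2384 and 2196 units in the control, 573 and 538 with miR-608 and 1297 and 1272 with miR-552-3p. The 3 groups were apart, with the control highest and miR-608 lowest. The difference with miR-608 was -2.28 ± 0.10 on the log2 scale (SE), with a 95% interval of -2.53 to -2.04, or 4.87-fold lower (limma adjusted p = 0.00158). Counted in either direction it ranked 12 in size among the 20749 tested probes, and 0.04% of them fell as far. With miR-552-3p SOX21 fell by 0.75 ± 0.10, 1.68-fold (adjusted p = 0.00553). Both calls passed in all 16 settings, with highest adjusted p of 0.0202 and 0.0354.

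SOX2 was read by 2 probes. The brighter one (ILMN_2177156) gave 1360 and 1240 units in the control, 503 and 477 with miR-608 and 562 and 447 with miR-552-3p. Both mimic groups lay below the control and overlapped each other. Its difference from the control was -1.61 ± 0.19 (log2, SE) with miR-608, 3.04-fold lower (limma adjusted p = 0.00518). With miR-552-3p it was -1.46 ± 0.19, 2.76-fold lower (adjusted p = 0.00536). Both passed in all 16 settings. The fainter probe (ILMN_1770635) gave 449 and 462 units in the control, 342 and 243 with miR-608 and 246 and 250.1 with miR-552-3p. It moved the same way, by -0.98 ± 0.27 with miR-608 (adjusted p = 0.0486) and by -1.29 ± 0.27 with miR-552-3p (adjusted p = 0.0209). These calls were fragile. With miR-608 the adjusted p was 0.163 without the first control array, 0.152 without the second and 0.0842 without either miR-552-3p array. It was 0.0618 with the replicate number as a block, 0.0945 with all probes tested and 0.0842 with only the groups compared, and the difference was -0.57 without the second miR-608 array. With miR-552-3p the adjusted p was 0.0772 to 0.0923 without either control or either miR-552-3p array. Without background correction the differences of this probe were -0.56 for miR-608 and -0.72 for miR-552-3p, and both passed.

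SOX4 and SOX9 followed neither that pattern nor each other. SOX4 (ILMN_1815745) read 2061 and 2194 units in the control, 1480 and 1210 with miR-608 and 2148 and 1820 with miR-552-3p. The miR-608 arrays were below all others, and the miR-552-3p arrays overlapped the control on the normalised scale. SOX4 fell by 0.63 ± 0.14 (log2, SE) with miR-608, 1.54-fold (limma adjusted p = 0.0282). That call did not pass without the first control array (0.105), the second (0.112), the first miR-608 array (0.0534) or the second (0.112), nor with all probes tested (0.0646). With miR-552-3p the difference was 0.03 ± 0.14, 95% interval -0.33 to 0.38 (adjusted p = 0.913).

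SOX9 (ILMN_1805466) was the member that was higher. It read 1553 and 1567 units in the control, 1646 and 1553 with miR-608 and 2606 and 2822 with miR-552-3p. The miR-552-3p arrays stood above the other 4. SOX9 rose by 1.00 ± 0.08 on the log2 scale with miR-552-3p, 2.00-fold (limma adjusted p = 0.00151), and 2.25% of tested probes rose as far. The call passed in all 16 settings, with a highest adjusted p of 0.0165. With miR-608 the difference was 0.15 ± 0.08, 95% interval -0.04 to 0.34 (adjusted p = 0.206). The groups overlapped in signal and were apart after normalisation.

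CEBPA was lower with both mimics, and CEBPD with miR-552-3p. CEBPA (ILMN_1715715) read 806 and 717 units in the control, 363 and 440.2 with miR-608 and 363 and 427.5 with miR-552-3p. All 4 mimic arrays lay below the control arrays. CEBPA fell by 1.13 ± 0.23 (log2, SE) with miR-608, 2.19-fold (limma adjusted p = 0.0228), and it fell by 1.05 ± 0.23 with miR-552-3p, 2.07-fold (adjusted p = 0.026). The SD between arrays was 0.40 log2 units with miR-608, 0.23 with miR-552-3p and 0.20 in the control, and the calls depended on single arrays. With miR-608 the adjusted p was 0.108 without the first control array, 0.0667 without the second and 0.0705 without the first miR-608 array. With miR-552-3p it was 0.0583 to 0.119 without either control or either miR-552-3p array, and 0.051 with all probes tested.

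CEBPD (ILMN_1782050) read 6697 and 6407 units in the control, 6268 and 6247 with miR-608 and 3787 and 3792 with miR-552-3p. The miR-552-3p arrays were far below the other 4, which overlapped after normalisation. CEBPD fell by 0.75 ± 0.09 (log2, SE) with miR-552-3p, 1.68-fold (limma adjusted p = 0.00404), in all 16 settings. With miR-608 the difference was -0.01 ± 0.09, 95% interval -0.23 to 0.21 (adjusted p = 0.936).

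**Figure D3:**
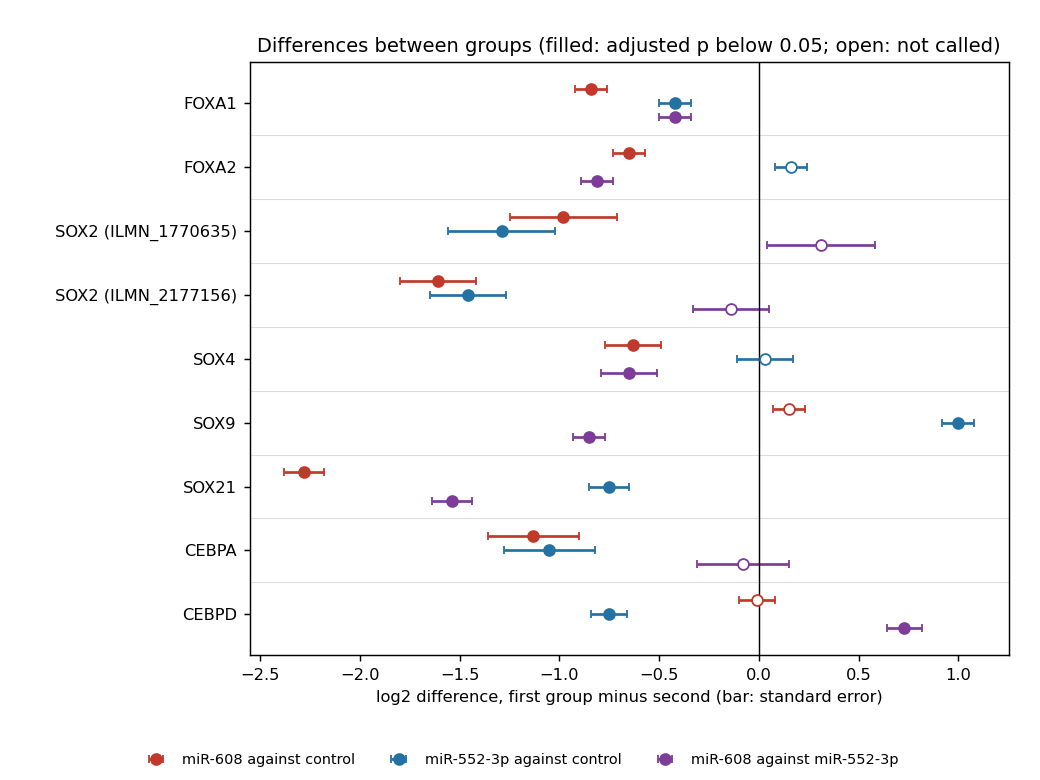
Differences of normalised log2 signal between groups for the 9 detected member probes, points with bars of 1 standard error from limma, with the difference between the mimics beside them; filled points were called and open ones were not. SOX21 reaches -2.28 with miR-608, and SOX9 reaches 1.00 with miR-552-3p.

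Counted over the members, 7 of 9 detected probes were lower with miR-608, 0 were higher and 2 were not called. Over all 20749 tested probes limma called 28.4% in either direction, 14% higher and 14.4% lower. The tested set includes probes detected on as few as 2 arrays, whereas the 9 member probes were detected on all 6. Of the 15584 probes detected on every array, limma called a larger share, 6528 probes. With miR-552-3p 6 member probes were lower, 1 was higher and 2 were not called, against 30.9% of all probes called, 14.7% higher and 16.1% lower. Here too the share was larger among the 15584 probes detected on every array, 6880 of which were called. Under that stricter filter 7 member probes were called in each comparison. The median difference of the 9 probes was -0.84 for miR-608 and -0.75 for miR-552-3p, against 0.02 and 0.03 over all probes. The members were chosen with earlier results of these data known, which these comparisons with all probes do not account for. Groups did not overlap for 8 of the 9 probes in each comparison, against 65.7% and 67% of all probes. The 2 comparisons share the control arrays. Without the first or the second control array 4 member probes were called in each comparison, and without either miR-552-3p array 4 were called with that mimic. By gene, 6 of the 8 detected members were called under miR-608 and 6 under miR-552-3p, against 33.1% and 35.6% of all 11817 tested named genes.

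**Figure D4:**
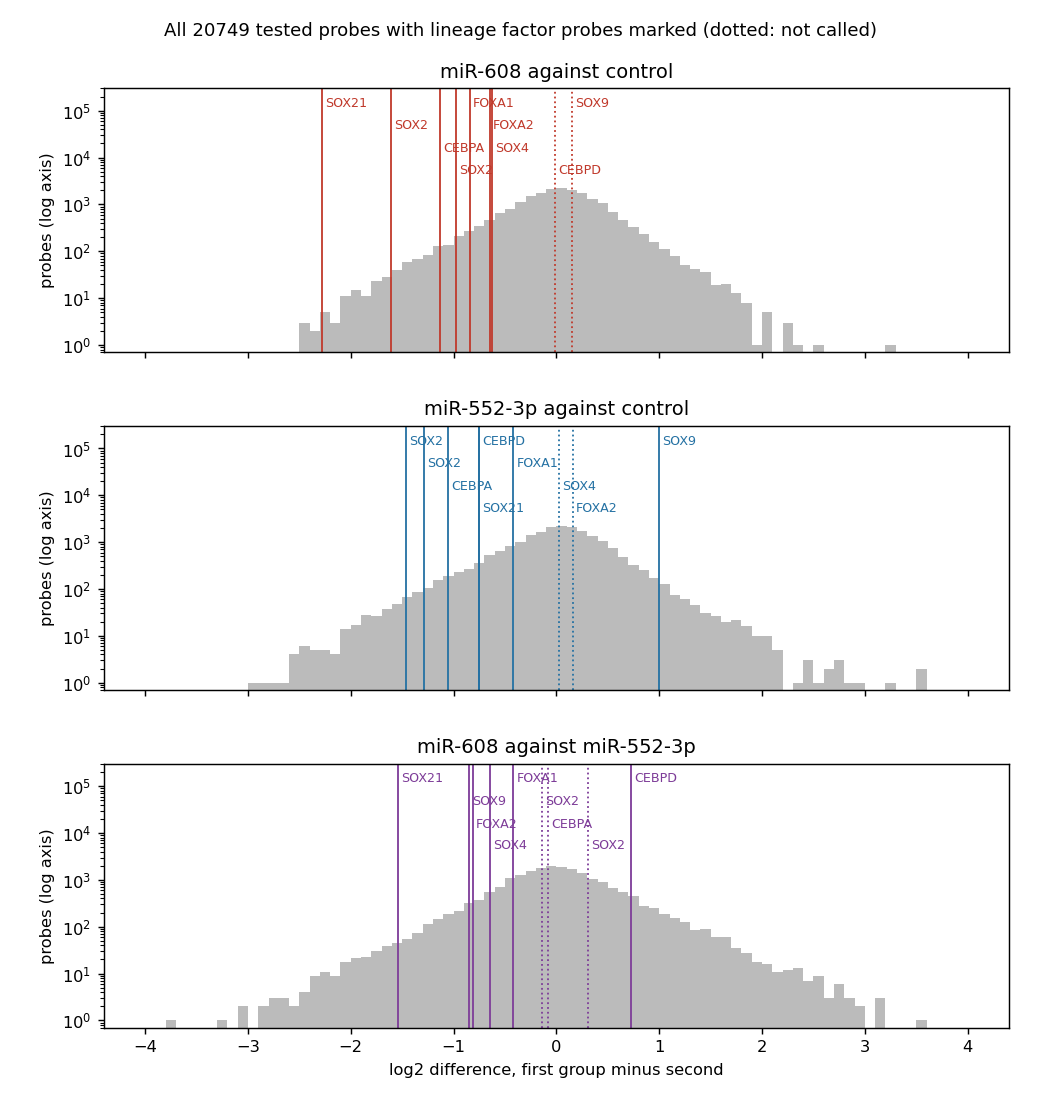
Histograms of log2 differences over the 20749 tested probes (number of probes on a log axis), 1 panel per comparison, with the 9 detected member probes as lines, dotted where not called. The bulk of probes centres near 0, the member medians against the control lie at -0.84 and -0.75, and SOX21 with miR-608 lies in the far lower tail.

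Compared with miR-552-3p, miR-608 gave 5 lower and 1 higher of the 9 member probes. Of all probes 36.5% were called in that comparison, 18.3% higher and 18.2% lower under miR-608. That share too includes probes detected on as few as 2 arrays. The groups were apart for 6 member probes, against 69.3% of all probes. By gene, 5 of the 8 detected members were lower and 1 was higher, against 42.3% of named genes called, 19.7% lower and 22.7% higher. SOX21 differed by -1.54 ± 0.10 (log2, SE), 2.91-fold lower under miR-608 (limma adjusted p = 0.000771). FOXA2 differed by -0.81 ± 0.08 (adjusted p = 0.00187) and SOX9 by -0.85 ± 0.08 (adjusted p = 0.00148), both lower under miR-608. CEBPD was higher under miR-608 by 0.73 ± 0.09 (adjusted p = 0.00323). These 4 differences passed in all 16 settings. FOXA1 differed by -0.42 ± 0.08 (adjusted p = 0.0115), a call lost without the second miR-608 array (0.0593), the first miR-552-3p array (0.0582) or the second (0.0525). SOX4 differed by -0.65 ± 0.14 (adjusted p = 0.0197), a call lost without the second miR-608 array (0.0833) or the first miR-552-3p array (0.0756).

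No difference between the mimics was called for SOX2 or CEBPA. The brighter SOX2 probe differed by -0.14 ± 0.19 with a 95% interval of -0.62 to 0.34 (limma adjusted p = 0.602). The fainter differed by 0.31 ± 0.27, interval -0.37 to 0.99 (adjusted p = 0.426), and was called without the second miR-608 array (0.72, adjusted p = 0.0179). CEBPA differed by -0.08 ± 0.23, interval -0.68 to 0.51 (adjusted p = 0.814). These intervals reach past 0.3 on the log2 scale in both directions, so differences of that size could not be told from none.

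The promoters of SOX2 and SOX21 are shown because these members fell furthest with miR-608. Each runs from 250 bases before to 50 bases after the gene's start in RefSeq on GRCh38.p14, with a CCAAT box on either strand (CCAAT or ATTGG) in capitals.
SOX2, chr3:181711675-181711974, plus strand: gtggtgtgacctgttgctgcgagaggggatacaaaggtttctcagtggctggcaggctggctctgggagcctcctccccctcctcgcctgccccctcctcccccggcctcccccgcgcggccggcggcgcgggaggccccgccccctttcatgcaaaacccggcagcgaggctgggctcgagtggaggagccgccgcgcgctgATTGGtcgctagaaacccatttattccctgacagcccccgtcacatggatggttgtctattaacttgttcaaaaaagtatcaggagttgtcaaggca
SOX21, chr13:94712496-94712795, minus strand: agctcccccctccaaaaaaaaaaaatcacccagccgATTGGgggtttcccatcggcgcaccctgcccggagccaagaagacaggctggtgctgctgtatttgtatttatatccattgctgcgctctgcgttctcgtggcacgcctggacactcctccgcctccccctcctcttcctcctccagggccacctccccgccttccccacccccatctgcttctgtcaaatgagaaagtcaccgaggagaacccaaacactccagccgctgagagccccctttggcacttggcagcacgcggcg
Of the 10 members, the promoters of 7 were searched, and those of FOXA2, SOX9 and CEBPD were not used. CCAAT or ATTGG was found in 4 of these 7, namely GATA6, SOX2, SOX4 and SOX21, against 35.7% of 27305 promoters. The SOX motif core ACAAAG, searched on both strands with CTTTGT, was found in 2 of 7, namely FOXA1 and SOX2, against 16% of promoters. The GC content ran from 49.3% at SOX4 to 80.7% at CEBPA, with 6 of 7 above the median of 58.3% over all promoters. A match of letters is no evidence of binding.

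Of 16 other SOX genes, 5 were tested and 10 were detected on no array. With miR-608 1 was higher and 2 were lower, and with miR-552-3p 0 were higher and 4 were lower. Of all 11817 tested genes, 16.3% were called higher and 16.8% lower with miR-608, and 15.6% higher and 20% lower with miR-552-3p. The median difference was -0.50 for miR-608 and -0.71 for miR-552-3p, against 0.02 and 0.00 over all tested genes. SOX8, a SOXE relative of SOX9, rose by 1.09 ± 0.07 on the log2 scale with miR-608 (limma adjusted p = 0.00181). With miR-552-3p it was not detected on either array and at least 1.37-fold lower than the control (adjusted p = 0.00753), a call lost with an intensity trend (0.0656). The bound sets the mean of the brighter group against the faintest detected signal of each array. SOX13 differed by -0.50 with miR-608 (adjusted p = 0.00815) and by -0.75 with miR-552-3p (adjusted p = 0.00247). SOX18, a SOXF factor of vessels, differed by -0.64 with miR-608 (adjusted p = 0.0136), lost without the first (0.0716) or the second control array (0.0636), and by -1.30 ± 0.11 with miR-552-3p (adjusted p = 0.00195). SOX7, also SOXF, differed by -0.65 with miR-552-3p (adjusted p = 0.00956), lost without the second control array (0.055) or the second miR-552-3p array (0.0526). The fainter SOX7 probe (ILMN_2134056), which the counts do not use, differed by -1.53 with miR-552-3p (adjusted p = 0.00157) and by -0.52 with miR-608 (adjusted p = 0.0298).

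Of 11 other genes listed with the FOXA, GATA and C/EBP factors, not all of them relatives, 6 were tested. With miR-608 0 were called by limma, against 33.1% of all named genes, and with miR-552-3p 1 was called, against 35.6%. That gene was FOXA3, which differed by -1.01 ± 0.13 (log2, SE) with miR-552-3p. It was at least 1.04-fold lower and undetected on both miR-552-3p arrays, having been detected on 1 of 2 control arrays (limma adjusted p = 0.00546). CEBPB, the C/EBP factor of inflammation, differed by 0.30 with miR-608 (adjusted p = 0.0896) and by 0.05 with miR-552-3p (adjusted p = 0.775). GATA4 and GATA5 were detected on no array.

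Of 31 other foregut and lung transcription factors, 28 had a probe and 14 were tested. With miR-608 1 was higher and 3 were lower, and with miR-552-3p 1 was higher and 6 were lower. The median difference was -0.20 and -0.23. Over all tested genes 16.3% were higher and 16.8% lower with miR-608, and 15.6% and 20% with miR-552-3p. FOXP4, a forkhead repressor of lung epithelium, was undetected with either mimic. It was at least 1.4-fold lower with miR-608 (limma adjusted p = 0.00195) and 1.43-fold lower with miR-552-3p (adjusted p = 0.00144). Only the 2 control arrays detected it, so it passed the detection filter through the group where it was higher. That filter favoured its calls as lower, which the counts above include, and they give no support of their own. ID2, an inhibitor of basic helix-loop-helix factors at the distal lung tips, differed by -0.57 with miR-552-3p (adjusted p = 0.0111), lost without the first control array (0.0613), the second (0.0505) or the second miR-552-3p array (0.0591). The epithelial ETS factor EHF was at least 1.52-fold lower with miR-552-3p (adjusted p = 0.019), lost without the second control array (0.053), the first miR-552-3p array (0.069) or the second (0.0858). The calls of ETV5 (0.47) and ETV4 (-0.42, its fainter probe -0.01) with miR-608 and of IRX3 with either mimic (-0.36 and -0.37) were each lost without the first control array and with all probes tested.

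Among lung products, 7 of the 20 with a probe were tested. With miR-608 2 were higher and 1 was lower, and with miR-552-3p 0 were higher and 2 were lower. The shares over all tested genes were 16.3% higher and 16.8% lower with miR-608, and 15.6% and 20% with miR-552-3p. MUC1, a membrane mucin of alveolar and airway cells, fell by 1.15 ± 0.10 (log2, SE) with miR-608 (limma adjusted p = 0.00263) and fell by 1.09 ± 0.10 with miR-552-3p (adjusted p = 0.00241). ABCA3, the lipid transporter of lamellar bodies, rose by 0.95 ± 0.12 with miR-608 (adjusted p = 0.00566), and its difference with miR-552-3p was 0.17 (adjusted p = 0.328). CAV1, a caveolar protein of flat alveolar cells, fell by 0.54 with miR-552-3p (adjusted p = 0.00663), lost with median scaling (0.0897). LAMP3, a lamellar body protein, differed by 0.40 with miR-608 (adjusted p = 0.038), and that call was lost without any 1 of the 6 arrays (0.0631 to 0.153).

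Liver and foregut products, several of them known targets of FOXA and C/EBP factors in liver, held 9 tested genes of 19. With miR-608 1 was higher and 4 were lower, and with miR-552-3p 0 were higher and 4 were lower, with medians of -0.21 and -0.33. Among all tested genes 16.3% were higher and 16.8% lower with miR-608, and 15.6% and 20% with miR-552-3p. Both FGA and FGG, fibrinogen chains, fell with both mimics. FGA fell by 1.19 ± 0.07 (log2, SE) with miR-608 (limma adjusted p = 0.00163) and fell by 0.79 ± 0.07 with miR-552-3p (adjusted p = 0.00235). FGG fell by 1.24 ± 0.11 with miR-608 (adjusted p = 0.0025) and fell by 0.97 ± 0.11 with miR-552-3p (adjusted p = 0.0036). The remaining chain, FGB, differed by -0.21 (adjusted p = 0.156) and 0.08 (adjusted p = 0.559), and its fainter probe by -0.19 (adjusted p = 0.573) and -0.61 (adjusted p = 0.1). CPS1, the first enzyme of the urea cycle, fell by 0.80 with miR-552-3p (adjusted p = 0.00311). The plasma protein gene APOH was at least 1.76-fold lower with miR-552-3p (adjusted p = 0.00902) and undetected on both of its arrays. With miR-608 the calls of CPS1 (-0.32) and of SERPINA1 (0.74, at least 1.16-fold) were lost without either control array or either miR-608 array. Only the 2 miR-608 arrays detected SERPINA1, so it passed the detection filter through the group where it was higher.

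Partners and repressors of SOX factors held 8 tested genes of 15, with 1 higher and 2 lower with miR-608 and 2 higher and 2 lower with miR-552-3p. For this list and the next, all tested genes gave 16.3% higher and 16.8% lower with miR-608, and 15.6% and 20% with miR-552-3p. LIN28B, an RNA-binding protein that blocks let-7 maturation, rose by 0.85 ± 0.11 with miR-608 (limma adjusted p = 0.00608). With miR-552-3p its difference was 0.60 (adjusted p = 0.0135), lost without either control or either miR-552-3p array (0.0574 to 0.0711). The corepressor TLE3 was undetected on both miR-608 arrays and detected on both miR-552-3p arrays, at least 2.09-fold lower under miR-608 than under miR-552-3p. The Wnt and matrix genes linked to SOX4 and SOX9 held 7 tested genes of 14, with 0 higher and 3 lower with miR-608 and 1 higher and 2 lower with miR-552-3p. The Wnt feedback gene AXIN2 fell by 0.98 ± 0.13 with miR-608 (adjusted p = 0.00645) and fell by 2.21 ± 0.13 with miR-552-3p (adjusted p = 0.001). DKK1, a secreted Wnt inhibitor, fell by 1.30 ± 0.10 with miR-608 (adjusted p = 0.00198), and its fainter probe differed by -1.66 (adjusted p = 0.0302). The cartilage matrix genes COL2A1, COL9A1 and ACAN, known targets of SOX9, were detected on no array.

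Cofactors of NKX2-1, FOXA and GATA factors held 10 tested genes of 11, with 1 higher and 3 lower with miR-608 and 4 higher and 3 lower with miR-552-3p. All tested genes gave 16.3% higher and 16.8% lower with miR-608, and 15.6% and 20% with miR-552-3p. The probes of NFIA, a nuclear factor I protein, did not give the same call. The brighter differed by -1.28 ± 0.11 with miR-608 (limma adjusted p = 0.00258) and by -0.14 with miR-552-3p (adjusted p = 0.408), and the fainter by -0.73 (adjusted p = 0.0536) and -0.28 (adjusted p = 0.368). NFIX fell by 0.76 with miR-608 (adjusted p = 0.00489). WWTR1, the coactivator TAZ that binds NKX2-1, rose by 1.27 ± 0.08 with miR-552-3p (adjusted p = 0.00111), and its difference with miR-608 was -0.21 (adjusted p = 0.112). Its relative YAP1 rose by 0.81 with miR-552-3p (adjusted p = 0.00492). With miR-608 YAP1 differed by 0.54 (adjusted p = 0.0177), a call lost without the first control array (difference 0.46) or the first miR-608 array (0.45). PARP1 fell by 0.65 with miR-552-3p (adjusted p = 0.00386).

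**Figure D5:**
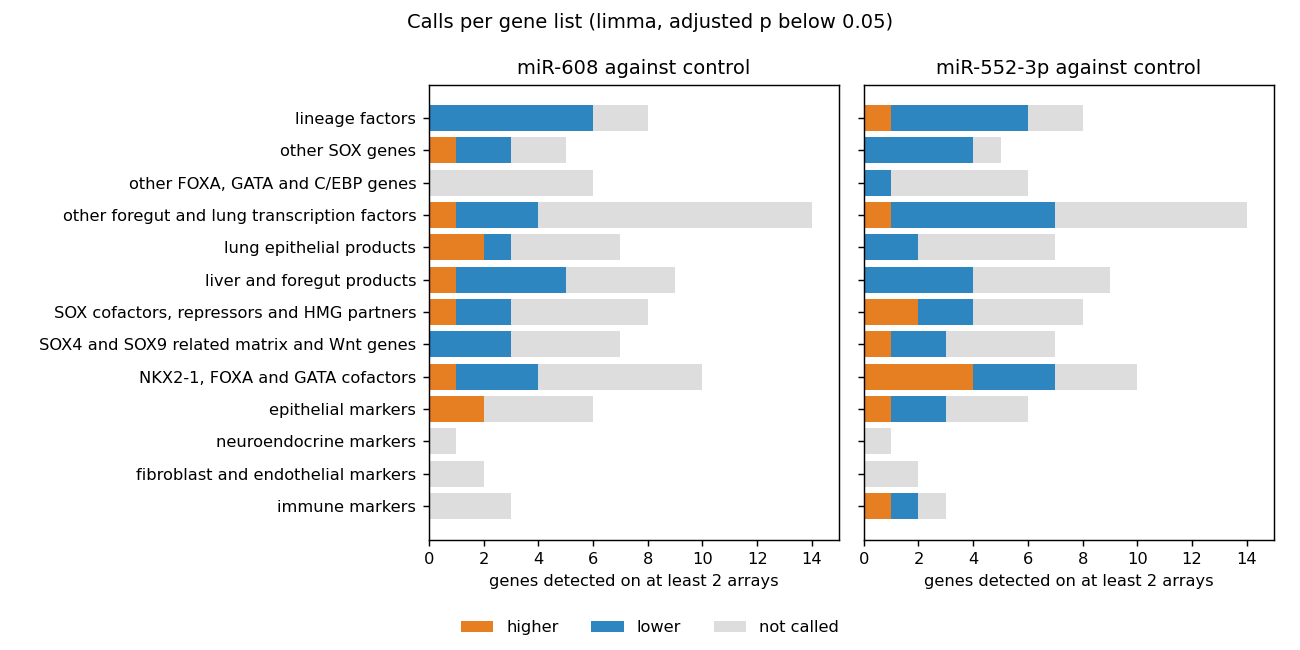
Numbers of tested genes called higher, called lower and not called by limma in each gene list, for miR-608 and for miR-552-3p against the control, 1 bar per list. The 8 detected lineage factors hold 6 lower genes with miR-608 and 5 lower with 1 higher with miR-552-3p.

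Of the markers of cell state and of other cells, the epithelial genes moved in part. Under miR-608 limma called 2 of 6 higher and 0 lower, against 16.3% and 16.8% of all tested genes. Under miR-552-3p it called 1 higher and 2 lower, against 15.6% and 20%, and the median difference was 0.02. KRT19 was the higher one (0.46, limma adjusted p = 0.0207), a call lost with all probes tested (0.0591). It was also lost without either control or either miR-552-3p array (differences 0.42 to 0.51). The fainter KRT18 probe rose by 0.66 (adjusted p = 0.0208) and the brighter differed by 0.15 (adjusted p = 0.571), both under miR-552-3p. CDH1, the cadherin of epithelial junctions, rose by 0.62 ± 0.07 with miR-608 (limma adjusted p = 0.00503), and EPCAM fell by 0.64 ± 0.07 with miR-552-3p (adjusted p = 0.00378). The summed signal of the epithelial list, 9 probes, was 56120 to 58650 units in the control, 59810 to 62810 with miR-608 and 48180 to 51780 with miR-552-3p. Of 8 fibroblast and endothelial markers 2 were tested and 0 were called by limma with either mimic, and their summed signal, 13 probes, was 1977 to 2296 units in all groups. Of 7 immune markers 3 were tested. CD14 fell by 1.22 ± 0.09 with miR-552-3p (adjusted p = 0.00135) and the brightest probe of CD68, a lysosomal protein, rose by 0.84 ± 0.12 (adjusted p = 0.00785). The other CD68 probes differed by 0.71 (adjusted p = 0.00556) and 0.29 (adjusted p = 0.339). The part of such markers in the members' differences was not tested.

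For each detected member the 3 tested genes with the most similar profile were found, by the root mean square distance over 6 arrays between log2 values centred on the control mean, among 11816 other named genes. For SOX21 these were FCHO1, FOXM1 and SLC24A1 at 0.156 to 0.198. For SOX2 they were DNAJC8, POM121C and S1PR3 at 0.168 to 0.215. FOXA1 lay closest to COPS7B, PPP1R16A and MT2A at 0.030 to 0.040, and FOXA2 to USP22, DHX37 and CTXN1 at 0.029 to 0.038. SOX4 lay closest to MAP3K21, AMER1 and CPNE4 at 0.085 to 0.094, and SOX9 to DDX10, SLC41A2 and DAGLB at 0.040 to 0.065. CEBPA lay closest to SSBP3, CLMP and CNNM4 at 0.095 to 0.126, and CEBPD to NT5DC1, IDH1 and DDX47 at 0.023 to 0.047.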

How the data were processed

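RNA of A549 cells was read on 6 Illumina bead arrays, 2 per group. The deposited table holds each probe's average signal, an intensity, with a detection p-value, per the file headers. GenomeStudio 2011.1 is named in the submitters' processing notes. The authors' deposited log2 values cover 17751 probes and served as an alternative, because their steps are not given in the sources used here. Probe symbols came from the platform annotation: 30112 probes had 1 symbol, 8 several and 17199 none. All 10 members matched RefSeq gene IDs.

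Signals were background-corrected and quantile-normalised with neqc of limma 3.58.1 in R 4.3.3 (offset 16). Its negative controls, 770 of them, were inferred from the detection p-values. The 20749 probes with a detection p-value under 0.05 on at least 2 arrays were kept, and 26570 were removed. One limma model (lmFit, eBayes, 3 residual degrees of freedom) over the 6 arrays gave two-sided p-values, adjusted by Benjamini-Hochberg over all kept probes. The procedure was also run on simulated data in which far fewer probes changed than were called here. Its error rates in these data were not measured.

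A gene of a list was counted through its brightest kept probe. Of each list at most 4 called genes with the smallest p per comparison were eligible to be named, those lost when 1 array was left out in part only counted, and FGB, CEBPB and other uncalled or undetected genes were added after their values were seen. The members and lists were chosen with earlier results of these data known. The alternatives covered normalisation, background correction, detection filter, rows, variance model, samples in the fit, the replicate number as a block and each array left out.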

Additional observations from a re-analysis of the deposited data

How the results depend on the processing

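With 2 arrays per group, leaving out 1 array changed counts more than any other setting. Probes called numbered 5893 for miR-608, 6403 for miR-552-3p and 7566 between the mimics, and with 1 array left out 2664 to 4880, 3472 to 5668 and 4837 to 6714. Called member probes, 7, 7 and 6, then numbered 4 to 6, 4 to 7 and 4 to 6. Testing all probes without the detection filter gave 3617 calls against the control for miR-608 and 4249 for miR-552-3p. Differences between the 2 replicates were nearly uncorrelated from group to group (correlations -0.0215, 0.0256 and -0.000408). This does not show whether arrays of the same replicate number were handled together. The replicate block gave 4843, 5558 and 6746 calls and 6, 7 and 6 member probes. Signs turned only for member differences that were not called. CEBPD with miR-608 became 0.07 with median scaling, and with 1 array left out it lay between -0.08 and 0.06 (0.06 without the first control array, 0.02 without the first miR-608 array). SOX4 with miR-552-3p then lay between -0.12 and 0.18, the lowest without the first miR-552-3p array. Between the mimics, the fainter SOX2 probe lay between -0.11 and 0.72 and CEBPA between -0.37 and 0.20, and CEBPA was 0.08 without the second miR-552-3p array. The brighter SOX2 probe lay between -0.40 and 0.11. Of 86 results for other named genes, whose alternatives were chosen after seeing the data, 49 passed in every setting, 37 were lost in at least 1 and 0 turned sign. The cause of these changes was not tested.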

Other observations

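Genes next to the members in RefSeq's order on GRCh38.p14 were read where a probe was tested. MIPOL1, next to FOXA1, fell by 0.79 on the log2 scale with miR-608 (limma adjusted p = 0.00579), and its difference with miR-552-3p was 0.22 (adjusted p = 0.146). SPIDR, next to CEBPD, fell by 0.50 with miR-552-3p (adjusted p = 0.0108), and its difference with miR-608 was -0.17 (adjusted p = 0.189). PRKDC, on the other side of CEBPD, differed by -0.22 (adjusted p = 0.165) and -0.05 (adjusted p = 0.766). The noncoding LINC00261, next to FOXA2, differed by -0.14 (adjusted p = 0.806) and -0.40 (adjusted p = 0.447). The probes of SOX2-OT, which overlaps SOX2, and of SFTA3, which overlaps NKX2-1, did not pass the detection filter.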
